A study of Homo sapiens with 2 samples.

Results

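The genes described here are 8 transcription regulators of epithelial cells: SOX9, ZNF703, KLF4, KLF5, KLF6, ELF3, EHF and GRHL2. They are 8 of the 36601 genes counted in the library and were chosen by name, with earlier results of these counts in view, so their levels are a description and carry no test. Of the 8, 7 reached a mean level of 0.05 UMIs (unique molecular identifiers, 1 per captured transcript) per 10000 UMIs, and GRHL2 did not.

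The cells were OVCAR5, a human ovarian carcinoma line carrying an interferon gamma (IFN-gamma) sensing reporter, grown as tumours in NSG-b2m-/- mice, an immunodeficient host that also lacks beta-2-microglobulin. Tumour tissue was minced, digested with Liberase and DNase I and exposed to cytokines outside the animal for 6 h, and antibody hashtags marked the cells of each sample. CFP+ cells, given in the labels as bystander tumour cells, were then sorted from 1 pool of 5 tumours and sequenced in a 10x Genomics 3' gene expression library with a matching hashtag library. The labels list 15 entries for this pool: 5 unstimulated, 5 with 10 ng/ml TNFa (tumour necrosis factor, TNF) and 5 with 100 ng/ml IFNy together with 10 ng/ml TNFa.

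No label pairs a hashtag with a treatment. Cells were assigned by pairs of hashtags. The 15 pairs used, here called hashed samples, were placed in 3 sets of 5 that were chosen by measured values. The unstimulated-like set held HTO2+HTO5, HTO2+HTO8, HTO3+HTO7, HTO4+HTO7 and HTO4+HTO10. The TNF-like set held HTO2+HTO6, HTO2+HTO10, HTO3+HTO5, HTO3+HTO8 and HTO4+HTO8. The IFN-gamma-and-TNF-like set held HTO2+HTO7, HTO3+HTO6, HTO3+HTO9, HTO4+HTO6 and HTO4+HTO9. A list of IFN-gamma response genes stood at 198 to 298 UMIs per 10000 in the IFN-gamma-and-TNF-like set and at 15.4 or less elsewhere. A list of TNF and NF-kB response genes stood at 10.6 to 15.7 in the unstimulated-like set and at 68.9 or more elsewhere. These gaps describe the choice and are not findings, and a difference between sets is not shown to be a difference between treatments. All comparisons below share these sets, so each set enters 2 of the 3 comparisons.

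Of 5269 barcodes, 3538 were kept as cells and 3144 of them had a clear pair among the 15, with 49 to 630 cells per hashed sample. The median cell of a hashed sample held 10942 to 12405 UMIs, and 12.2% to 14.7% of its UMIs were mitochondrial. A list of 13 epithelial tumour markers, with none at 0 counts, summed to 42.0 to 50.4 UMIs per 10000 in the IFN-gamma-and-TNF-like set, 46.5 to 69.0 in the TNF-like set and 74.7 to 92.4 in the unstimulated-like set. Lists of markers of other cells stood far lower: T or NK cell markers at 0.172 or less with 7 of 10 at 0 counts, B cell markers at 0.0300 or less, fibroblast markers at 0.0778 or less, myeloid markers at 0.623 or less, endothelial markers at 0.617 or less, and all 5 erythroid markers at 0. A list of S phase genes stood at 1.66 to 3.17 in the IFN-gamma-and-TNF-like set, 3.02 to 5.83 in the TNF-like set and 4.21 to 6.19 in the unstimulated-like set. The part of these epithelial and cell cycle lists in the differences below was not tested.

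SOX9 is an HMG-box factor that maintains progenitor states in many ducts and glands, and ZNF703 is a zinc finger corepressor of the NET family known from breast cancer. KLF4, KLF5 and KLF6 belong to the Krüppel-like family, whose zinc fingers bind GC-rich and CACC-type DNA. KLF4 is known for terminal differentiation of barrier epithelia, KLF5 for proliferating epithelial cells and KLF6 as an injury-induced factor and candidate tumour suppressor. ELF3 and EHF are epithelium-restricted ETS factors, which read a GGAA core, and GRHL2 is a Grainyhead-like factor that maintains cell junctions. NF-kB, which TNF activates, is the textbook route by which that cytokine reaches its target promoters.

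The promoters of KLF6 and EHF, whose sets lay apart in opposite directions, and of ELF3, the nearest relative of EHF here, are shown because they hold different short motifs. The windows run from 250 bases before to 50 bases after the annotated start, read 5' to 3' on the gene's strand, from RefSeq on GRCh38.p14. Capitals mark matches on either strand. The motif of Sp and Krüppel-like factors searched first was the GC box, spelled GGGCGG. The next was the shorter box named after its letters CACCC, which these factors also read. The NF-kB consensus was searched by its usual degenerate form. Of the 8 genes, 5 have an entry among the windows used. The KLF6 window lies at chr10:3785160-3785459 on the minus strand, the first EHF window at chr11:34624007-34624306 on the plus strand and the ELF3 window at chr1:202010337-202010636 on the plus strand.
KLF6: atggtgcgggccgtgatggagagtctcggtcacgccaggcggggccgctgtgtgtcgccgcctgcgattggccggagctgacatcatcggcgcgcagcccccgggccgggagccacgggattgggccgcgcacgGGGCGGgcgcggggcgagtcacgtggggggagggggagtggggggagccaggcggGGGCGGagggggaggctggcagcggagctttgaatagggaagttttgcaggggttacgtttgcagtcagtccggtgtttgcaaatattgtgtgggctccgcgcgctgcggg
EHF: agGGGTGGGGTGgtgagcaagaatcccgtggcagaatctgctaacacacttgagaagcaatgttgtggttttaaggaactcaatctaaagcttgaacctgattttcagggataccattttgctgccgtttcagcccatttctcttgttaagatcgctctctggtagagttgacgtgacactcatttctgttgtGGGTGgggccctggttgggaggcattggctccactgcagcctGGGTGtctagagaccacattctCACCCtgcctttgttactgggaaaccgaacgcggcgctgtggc
ELF3: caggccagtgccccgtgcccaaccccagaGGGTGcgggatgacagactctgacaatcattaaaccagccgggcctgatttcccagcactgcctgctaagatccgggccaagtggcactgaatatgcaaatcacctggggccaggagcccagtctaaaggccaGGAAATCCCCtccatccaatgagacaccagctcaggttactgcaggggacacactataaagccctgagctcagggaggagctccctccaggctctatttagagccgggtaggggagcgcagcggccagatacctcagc

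The KLF6 window held 2 GC boxes and none of the other marked forms, and its GC content was 70.7%. The EHF window held 5 CACC box matches, 2 of them side by side near its upstream end, and its GC content was 51.3%. The ELF3 window held 1 NF-kB match, which overlaps a GGAA core, and 1 CACC box. The KLF4 window held 4 GC boxes. A second EHF window, at the start of another transcript, held no GC box, no CACC box and no NF-kB match. The ISRE core, a motif of interferon-induced genes, was in none of the windows of these 5 genes and in 3.57% of all windows. Among 35116 windows of the same length, 44.95% held a GC box, 59.9% a CACC box and 5.91% an NF-kB match. These matches are letters in a window and not evidence of binding.

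KLF6 (minus strand, chr10:3775996-3785281 in GENCODE 29) was higher in each step from the unstimulated-like to the IFN-gamma-and-TNF-like set. In the unstimulated-like set its level per 10000 UMIs was 0.736 in HTO2+HTO5, 0.874 in HTO2+HTO8, 1.245 in HTO3+HTO7, 0.765 in HTO4+HTO7 and 1.01 in HTO4+HTO10. In the TNF-like set it was 1.31 in HTO2+HTO6, 1.497 in HTO2+HTO10, 1.74 in HTO3+HTO5, 1.47 in HTO3+HTO8 and 1.51 in HTO4+HTO8. In the IFN-gamma-and-TNF-like set it was 1.83 in HTO2+HTO7, 2.26 in HTO3+HTO6, 3.33 in HTO3+HTO9, 2.72 in HTO4+HTO6 and 3.22 in HTO4+HTO9. The 3 ranges did not overlap, although the gaps between neighbouring ranges were small beside the counting error of the nearest samples: HTO3+HTO7 had a 95% interval of 1.03 to 1.497 and HTO2+HTO6 one of 1.196 to 1.42. The ratio of medians was 1.71 for the TNF-like over the unstimulated-like set, 3.11 for the IFN-gamma-and-TNF-like over the unstimulated-like set and 1.82 for the IFN-gamma-and-TNF-like over the TNF-like set.

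The order of the sets for KLF6 showed in the share of cells as well as in the level. After thinning each cell to 5000 UMIs, a KLF6 UMI was seen in 25.9% to 29.2% of cells of the unstimulated-like samples, 34.5% to 51.1% of the TNF-like samples and 50.9% to 75.5% of the IFN-gamma-and-TNF-like samples (unthinned, 39.1% to 50.7%, 56.6% to 71.4% and 70.6% to 88.7%). The pool held no cell type that lacks these genes, so the share that free RNA gives could not be measured. The variance of the thinned KLF6 counts was 1.15 to 2.53 times their mean over the 15 hashed samples, where a value of 1 is counting error alone. Among hashed samples that share HTO2, HTO3 or HTO4, KLF6 kept the same order of sets with no overlap in all 3 tags. Without cells high for cell cycle or stress genes neighbouring ranges met: HTO3+HTO7 was then at 1.201 and HTO2+HTO6 at 1.19, and HTO3+HTO5 at 1.795 and HTO2+HTO7 at 1.75, at ratios of medians of 1.82 and 1.84. With at most 10% mitochondrial UMIs the IFN-gamma-and-TNF-like and TNF-like ranges also met, at a ratio of 1.52. This limit drops most cells of every hashed sample, whose median mitochondrial share was 12.2% or more, so counting error is larger there. Under median-of-ratios scaling the KLF6 ratios were 1.82, 3.72 and 2.05.

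KLF5 (plus strand, chr13:73054976-73077542) had its highest median in the TNF-like set, with overlapping ranges. Among unstimulated-like samples it stood at 0.793 in HTO2+HTO5, 1.05 in HTO2+HTO8, 1.34 in HTO3+HTO7, 0.931 in HTO4+HTO7 and 0.675 in HTO4+HTO10. Among TNF-like samples it stood at 1.19 in HTO2+HTO6, 1.503 in HTO2+HTO10, 1.84 in HTO3+HTO5, 1.04 in HTO3+HTO8 and 1.42 in HTO4+HTO8. Among IFN-gamma-and-TNF-like samples it stood at 0.949 in HTO2+HTO7, 0.971 in HTO3+HTO6, 1.42 in HTO3+HTO9, 1.06 in HTO4+HTO6 and 1.22 in HTO4+HTO9. HTO3+HTO7 was above 2 of the 5 TNF-like samples, so the ratio of medians of 1.53 between TNF-like and unstimulated-like sets did not separate them. The ratio was 1.14 for the IFN-gamma-and-TNF-like over the unstimulated-like set and 0.745 over the TNF-like set.

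KLF4 (minus strand, chr9:107484852-107490482) varied more within the sets than between their medians of 0.299, 0.315 and 0.434. Its level in the unstimulated-like set was 0.299 in HTO2+HTO5, 0.231 in HTO2+HTO8, 0.419 in HTO3+HTO7, 0.338 in HTO4+HTO7 and 0.150 in HTO4+HTO10. Its level in the TNF-like set was 0.273 in HTO2+HTO6, 0.339 in HTO2+HTO10, 0.567 in HTO3+HTO5, 0.182 in HTO3+HTO8 and 0.315 in HTO4+HTO8. Its level in the IFN-gamma-and-TNF-like set was 0.405 in HTO2+HTO7, 0.338 in HTO3+HTO6, 0.447 in HTO3+HTO9, 0.434 in HTO4+HTO6 and 0.561 in HTO4+HTO9. The highest TNF-like sample was 3.12 times the lowest, beside a ratio of medians of 1.45 between the IFN-gamma-and-TNF-like and unstimulated-like sets, and all 3 pairs of ranges overlapped. Without HTO3+HTO7 that ratio was 1.64 and the ranges of those 2 sets only touched, as HTO4+HTO7 and HTO3+HTO6 both stood at 0.338 with intervals of 0.256 to 0.438 and 0.282 to 0.403. With at most 10% mitochondrial UMIs the ratio was 2.66, with ranges that overlapped.

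EHF (plus strand, chr11:34621093-34661057) was lowest in the IFN-gamma-and-TNF-like set. The unstimulated-like samples held 0.467 in HTO2+HTO5, 0.477 in HTO2+HTO8, 0.386 in HTO3+HTO7, 0.504 in HTO4+HTO7 and 0.619 in HTO4+HTO10. The TNF-like samples held 0.293 in HTO2+HTO6, 0.323 in HTO2+HTO10, 0.464 in HTO3+HTO5, 0.343 in HTO3+HTO8 and 0.322 in HTO4+HTO8. The IFN-gamma-and-TNF-like samples held 0.0926 in HTO2+HTO7, 0.161 in HTO3+HTO6, 0.0462 in HTO3+HTO9, 0.0590 in HTO4+HTO6 and 0.174 in HTO4+HTO9. All 5 IFN-gamma-and-TNF-like samples lay below all 10 others, with a ratio of medians of 0.194 over the unstimulated-like set and 0.287 over the TNF-like set. The level of HTO3+HTO9 rests on 3 counts, with a 95% interval of 0.00954 to 0.135.

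Between the TNF-like and unstimulated-like sets EHF had a ratio of medians of 0.677, and the ranges overlapped because HTO3+HTO5 lay above HTO3+HTO7. Without HTO3+HTO7 the ratio was 0.658 and the ranges were apart. In thinned cells an EHF UMI was seen in 15.2% to 23.0% of cells in the unstimulated-like samples, 9.66% to 16.2% in the TNF-like samples and 2.04% to 11.9% in the IFN-gamma-and-TNF-like samples (unthinned, 29.6% to 36.6%, 23.7% to 30.6% and 3.77% to 15.6%). In each of the 3 first hashtags EHF was lower in the IFN-gamma-and-TNF-like samples than in both other sets. The call against the TNF-like set did not hold in thinned cells, where HTO4+HTO9 was at 0.237 and HTO2+HTO6 at 0.214, nor with at most 10% mitochondrial UMIs, at a ratio of 0.520. Without cells high for cell cycle or stress genes its ratio over the unstimulated-like set was 0.127. Under median-of-ratios scaling its ratios over the unstimulated-like and TNF-like sets were 0.227 and 0.317.

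ELF3 (plus strand, chr1:202007945-202017188), the other ETS factor, did not share the EHF pattern. In the unstimulated-like set it was 1.16 in HTO2+HTO5, 0.649 in HTO2+HTO8, 0.738 in HTO3+HTO7, 0.919 in HTO4+HTO7 and 2.22 in HTO4+HTO10. In the TNF-like set it was 1.04 in HTO2+HTO6, 0.905 in HTO2+HTO10, 0.756 in HTO3+HTO5, 1.82 in HTO3+HTO8 and 1.00 in HTO4+HTO8. In the IFN-gamma-and-TNF-like set it was 0.595 in HTO2+HTO7, 1.11 in HTO3+HTO6, 0.725 in HTO3+HTO9, 0.558 in HTO4+HTO6 and 0.615 in HTO4+HTO9. A single hashed sample stood well above the rest of each set, namely HTO4+HTO10, HTO3+HTO8 and HTO3+HTO6, and all ranges overlapped. The ratios of medians were 1.09 for the TNF-like over the unstimulated-like set, 0.668 for the IFN-gamma-and-TNF-like over the unstimulated-like set and 0.612 over the TNF-like set. The last pair of ranges was apart without HTO3+HTO6, at a ratio of 0.602.

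**Figure D1:**
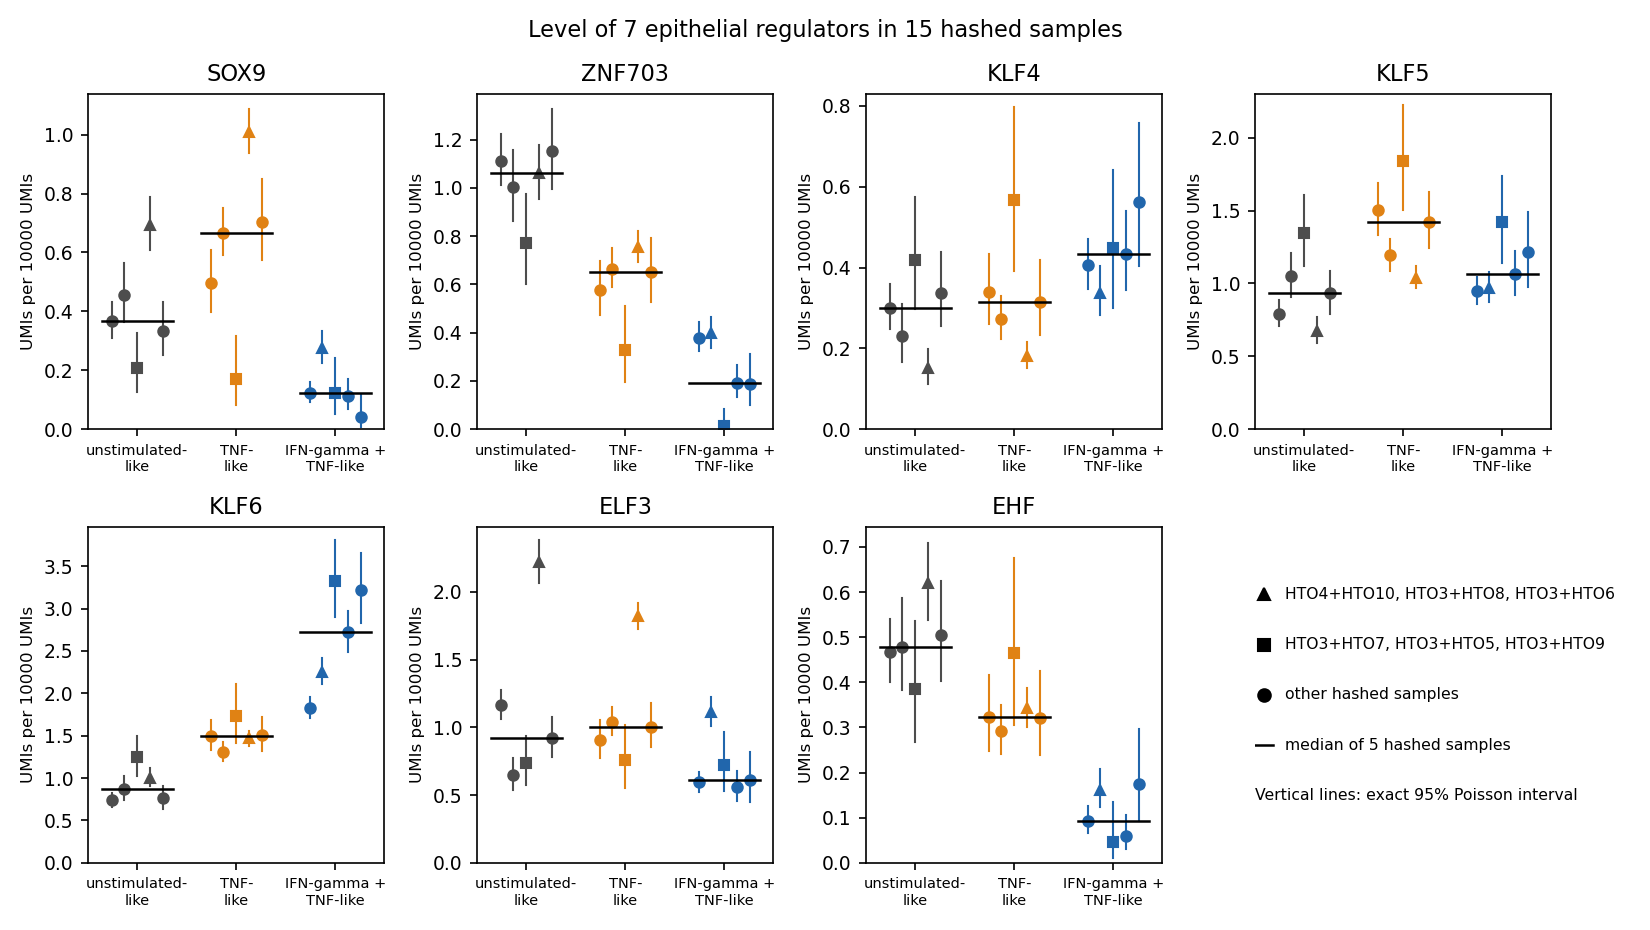
Level of 7 of the 8 genes in each of the 15 hashed samples, in UMIs per 10000 UMIs on the y axis and by inferred set on the x axis. Points are hashed samples, vertical lines exact 95% Poisson intervals and black bars medians of 5; the 3 KLF6 ranges are apart, whereas those of KLF4, KLF5 and ELF3 overlap, and the triangles hold the highest ELF3 and SOX9 of each set.

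SOX9 (plus strand, chr17:72121020-72126420) was highest in the TNF-like set and lowest in the IFN-gamma-and-TNF-like set by its medians, with wide ranges. Levels of the unstimulated-like samples were 0.367 in HTO2+HTO5, 0.456 in HTO2+HTO8, 0.209 in HTO3+HTO7, 0.332 in HTO4+HTO7 and 0.693 in HTO4+HTO10. Levels of the TNF-like samples were 0.668 in HTO2+HTO6, 0.495 in HTO2+HTO10, 0.172 in HTO3+HTO5, 1.01 in HTO3+HTO8 and 0.703 in HTO4+HTO8. Levels of the IFN-gamma-and-TNF-like samples were 0.123 in HTO2+HTO7, 0.276 in HTO3+HTO6, 0.123 in HTO3+HTO9, 0.113 in HTO4+HTO6 and 0.0401 in HTO4+HTO9. No pair of ranges was apart: HTO3+HTO6 was above HTO3+HTO7 and HTO3+HTO5, and the unstimulated-like range lay wholly within the TNF-like range. The ratios of medians were 1.82 for the TNF-like over the unstimulated-like set, 0.335 for the IFN-gamma-and-TNF-like over the unstimulated-like set and 0.184 over the TNF-like set.

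The overlap of SOX9 between the IFN-gamma-and-TNF-like set and each other set rested on 1 hashed sample from either side, whereas no setting of 22 gave ranges apart with a ratio past 1.5 between the TNF-like and unstimulated-like sets. Without HTO3+HTO6 the IFN-gamma-and-TNF-like set lay below both others, at 0.321 of the unstimulated-like and 0.176 of the TNF-like median. Without HTO3+HTO7 the ratio over the unstimulated-like set was 0.298, and without HTO3+HTO5 the ratio over the TNF-like set was 0.179, again with ranges apart. Within HTO2 and within HTO4 the IFN-gamma-and-TNF-like samples were below both other sets (0.298 and 0.149 of the unstimulated-like median), and within HTO3 the ranges overlapped at a ratio of 0.955. In thinned cells a SOX9 UMI was seen in 7.58% to 23.7%, 8.89% to 32.4% and 1.69% to 13.2% of cells in the unstimulated-like, TNF-like and IFN-gamma-and-TNF-like samples (unthinned, 16.9% to 35.4%, 18.4% to 53.7% and 4.69% to 22.7%). The gene span of SOX9-AS1, on the opposite strand, covers that of SOX9, but 0 pairs of their exons overlap.

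ZNF703 (plus strand, starting at position 37695751 of its chromosome) was lower where KLF6 was higher. In the unstimulated-like set it was 1.11 in HTO2+HTO5, 1.00 in HTO2+HTO8, 0.771 in HTO3+HTO7, 1.15 in HTO4+HTO7 and 1.06 in HTO4+HTO10. In the TNF-like set it was 0.665 in HTO2+HTO6, 0.576 in HTO2+HTO10, 0.326 in HTO3+HTO5, 0.754 in HTO3+HTO8 and 0.650 in HTO4+HTO8. In the IFN-gamma-and-TNF-like set it was 0.380 in HTO2+HTO7, 0.397 in HTO3+HTO6, 0.0154 in HTO3+HTO9, 0.193 in HTO4+HTO6 and 0.187 in HTO4+HTO9. The unstimulated-like samples were above all 10 others, while HTO3+HTO5 overlapped the IFN-gamma-and-TNF-like range. HTO3+HTO9 rests on 1 count, with a 95% interval of 0.00039 to 0.0859.

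The ratio of medians of ZNF703 was 0.612 for the TNF-like over the unstimulated-like set, where HTO3+HTO8 at 0.754 and HTO3+HTO7 at 0.771 nearly met. With at most 10% mitochondrial UMIs these ranges overlapped, at a ratio of 0.568. It was 0.182 for the IFN-gamma-and-TNF-like over the unstimulated-like set and 0.297 over the TNF-like set, and in the latter pair the ranges were apart at 0.294 without HTO3+HTO5. Without the hashed samples of under 100 cells these 2 ratios were 0.349 and 0.577, and with only HTO2 they were 0.359 and 0.612, all with ranges apart. Within each of the 3 first hashtags ZNF703 was lower in the TNF-like and in the IFN-gamma-and-TNF-like samples than in the unstimulated-like ones. In thinned cells a ZNF703 UMI was seen in 25.8% to 40.6%, 17.8% to 27.9% and 0% to 18.4% of cells in the 3 sets in the same order (unthinned, 45.1% to 60.2%, 22.4% to 44.3% and 1.89% to 32.7%). Under median-of-ratios scaling the ratios were 0.636, 0.216 and 0.339.

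GRHL2 was almost absent from the counts: 1 UMI in HTO3+HTO8, 1 in HTO2+HTO5 and 0 in the other 13 hashed samples. Over all cells with a pair a count of 0 would allow up to 0.000783 UMIs per 10000, and the level over these cells was 0.000522. No ratio is given for it, and expression below this depth could not be seen.

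Read against all genes, the counts for the members are small. A gene was called when the ranges of 2 sets were apart and the ratio of medians was at least 1.5 in either direction, among the 9361 genes with a mean level of at least 0.05. Between the TNF-like and unstimulated-like sets 1 member was called higher (KLF6), beside 2.92% of all genes, and 1 lower (ZNF703), beside 1.63%. Between the IFN-gamma-and-TNF-like and unstimulated-like sets 1 was higher (KLF6), beside 6.84%, and 2 lower (ZNF703 and EHF), beside 12.6%. Between the IFN-gamma-and-TNF-like and TNF-like sets 1 was higher (KLF6), beside 4.37%, and 1 lower (EHF), beside 4.45%. The members were named with these contrasts in view, so nothing is read from their counts.

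The median ratio of the 7 measured members was 1.09, 0.668 and 0.612 in the 3 comparisons, beside 0.955, 0.848 and 0.890 over all genes tested. The last medians are shifts of -0.07, -0.24 and -0.17 on the log2 scale that come with scaling to all UMIs. Of the genes called, 64.1%, 35.1% and 49.5% were higher under this scaling, and 74.3%, 59.3% and 72.5% under median-of-ratios scaling. All 7 member calls kept their direction under both scalings.

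**Figure D2:**
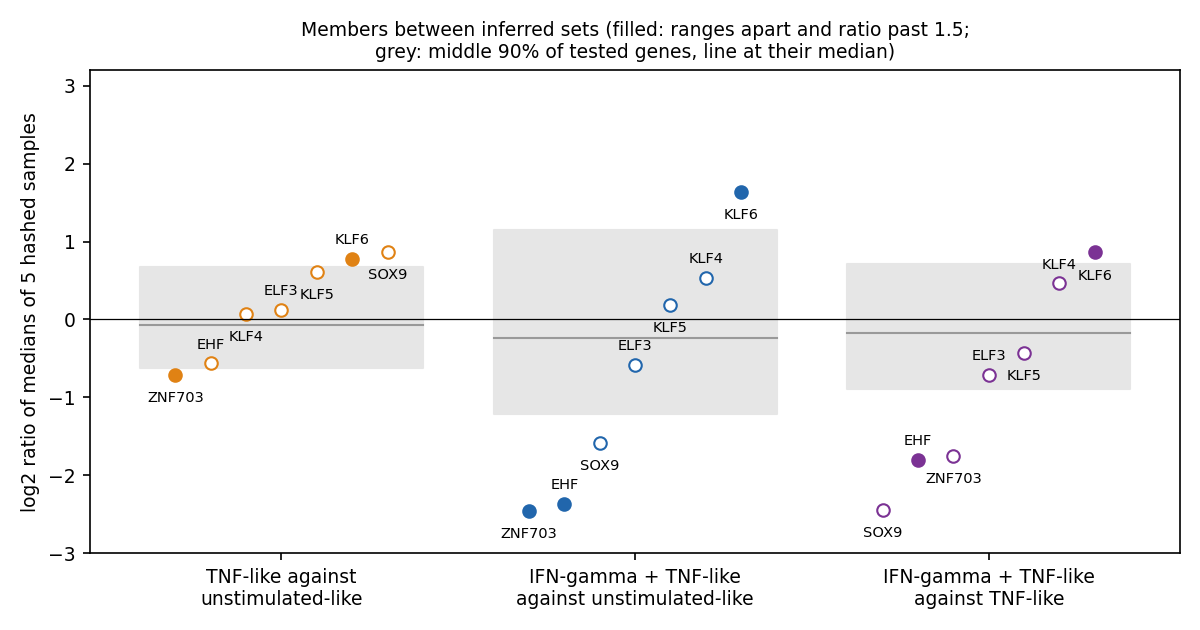
Log2 ratio of the medians of 5 hashed samples on the y axis for 7 genes in the 3 comparisons of inferred sets on the x axis. Filled points have ranges apart and a ratio past 1.5, and grey bands hold the middle 90% of the genes tested; KLF6 is the only filled point above 0 in each comparison, and SOX9 lies far below 0 against the TNF-like set while its ranges overlap.

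The relatives of these genes had different patterns. In the KLF and SP family 12 of 23 genes were tested, and besides KLF6 none was called higher in any comparison. KLF16 had medians of 0.224, 0.155 and 0.113 in the unstimulated-like, TNF-like and IFN-gamma-and-TNF-like sets and was called lower in the last against the first. SP3, a GC box factor, had medians of 0.568, 0.550 and 0.360 and was called lower in the IFN-gamma-and-TNF-like set against both others. Of 4 SOX genes tested among 16, SOX7 was called lower in all 3 comparisons, with medians of 0.132, 0.0765 and 0.0242. SOX13 was called lower in the IFN-gamma-and-TNF-like against the unstimulated-like set only, with medians of 0.0965, 0.0525 and 0.0215.

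The ETS family showed calls in both directions among 18 tested of 27 genes. ETS1 (medians 0.552, 1.10 and 1.00), ETS2 (0.304, 0.550 and 0.751) and ETV6 (0.132, 0.309 and 0.290) were called higher in the TNF-like against the unstimulated-like set. ETV7, known as an interferon-induced gene, was seen almost only in the IFN-gamma-and-TNF-like set, at a median of 1.28 beside 0.0161 and 0.0269. ETV1 (0.121, 0.0377 and 0.0462) and ETV4 (0.0912, 0.0539 and 0.0376) were called lower in both other sets against the unstimulated-like set. EHF had the lowest ratio of the called ETS genes between the IFN-gamma-and-TNF-like and unstimulated-like sets.

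Partners of ZNF703 and other lineage factors were mostly not called. Of 5 tested genes among the NET zinc fingers and the TLE corepressors, TLE3 was called lower in the IFN-gamma-and-TNF-like set against both others, with medians of 0.255, 0.260 and 0.123. Of 2 tested genes in the Grainyhead and OVOL list of 9, TFCP2 was called lower in that set against the unstimulated-like set (0.129, 0.0862 and 0.0771). Of 9 tested among 19 other epithelial and ovarian lineage regulators, TFAP2A (0.208, 0.125 and 0.102), CDX2 (0.121, 0.0778 and 0.0375) and HES1 (0.212, 0.129 and 0.108) were called lower in the IFN-gamma-and-TNF-like against the unstimulated-like set. ESR1, the oestrogen receptor, was called higher in the TNF-like against the unstimulated-like set, at 0.112 beside 0.0220.

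Epithelial structure genes were lower in part. Of 18 tested among 26 junction and surface genes, those called lower in the IFN-gamma-and-TNF-like against the unstimulated-like set included CLDN4 (1.51, 1.08 and 0.542), JUP (0.342, 0.329 and 0.225) and PKP3 (0.534, 0.395 and 0.349). Of 2 tested genes among 8 transcription factors of epithelial-mesenchymal transition, ZEB1 was called higher in the IFN-gamma-and-TNF-like set against both others, with medians of 0.253, 0.325 and 0.515. Among 11 tested epithelial tumour markers 6 were called lower between the IFN-gamma-and-TNF-like and unstimulated-like sets, including the keratins KRT19 (17.9, 9.84 and 7.40) and KRT7 (7.04, 5.62 and 2.80). The share of all genes called lower in that comparison was the 12.6% given above.

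The hashed samples of a set also differed among themselves. Those named here and in the next paragraph were picked by these same levels, so what they share is a description. HTO4+HTO10, HTO3+HTO8 and HTO3+HTO6 had the highest SOX9, the highest ELF3 and the lowest KLF4 of their sets. Their lists of hypoxia and glycolysis genes stood at 37.9, 34.9 and 29.03 UMIs per 10000, the highest of their sets except that HTO3+HTO9 stood at 29.09, and their lists of dissociation and immediate early genes (34.8, 31.7 and 32.2) were the lowest. They held 291, 630 and 300 cells. No label ties a hashed sample to a tumour, and the part of these lists in the levels was not tested.

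HTO3+HTO7, HTO3+HTO5 and HTO3+HTO9 stood at the other end, with the highest KLF5 and KLF6 and the lowest ZNF703 of their sets. The first 2 also had the highest KLF4 and the lowest SOX9 of their sets. They held the fewest cells of their sets, 71, 49 and 53, at median depths within the range of the other hashed samples. Their lists of amino acid and unfolded protein stress genes stood at 19.9, 23.9 and 22.8, and their dissociation and immediate early lists at 46.1, 45.8 and 42.7, the highest of each set. Without cells high for stress or cell cycle genes within their own hashed sample, KLF5 in these 3 was 1.19, 1.80 and 1.34. These were the highest of each set, the last close to HTO4+HTO9 at 1.30. That cut is made inside each hashed sample, so it leaves differences between whole samples in place. The part of the stress list in the KLF5 levels of these 3 was not tested. Hypoxia and glycolysis lists were high here too, at 30.3, 33.2 and 29.09, above all hashed samples outside this group and the one before. A high hypoxia list was thus shared by both ends.

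**Figure D3:**
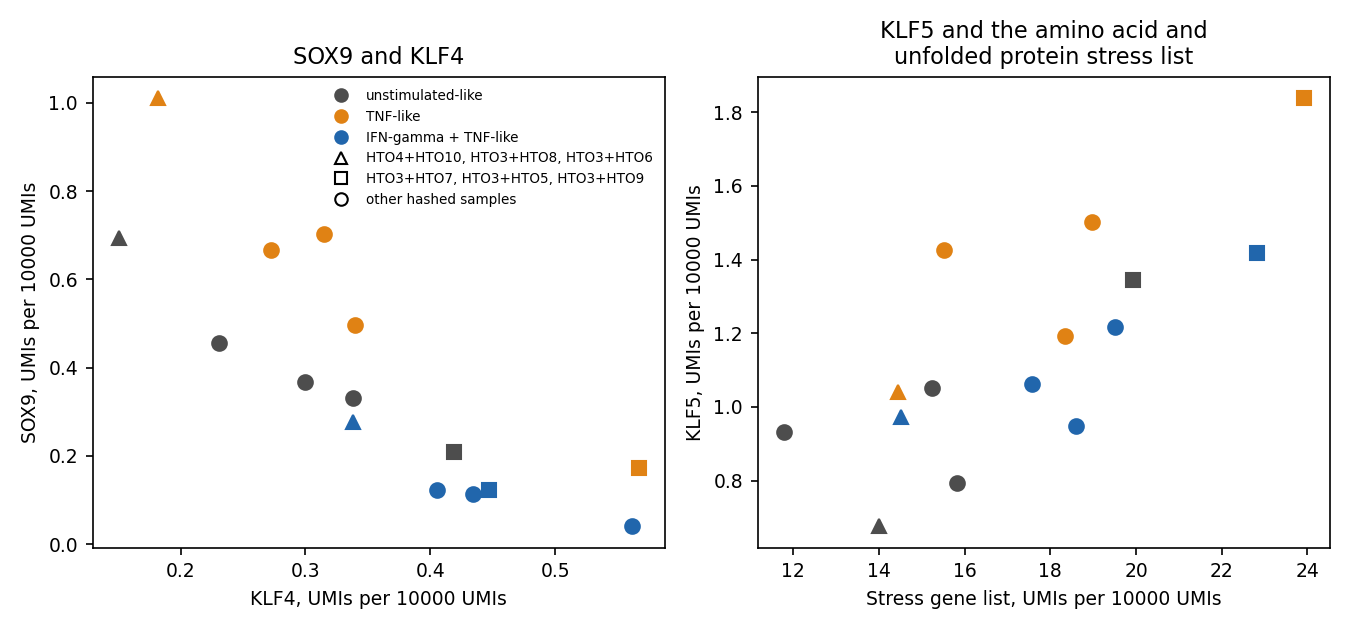
Left, SOX9 against KLF4, and right, KLF5 against the summed amino acid and unfolded protein stress list, each in UMIs per 10000 UMIs over the 15 hashed samples (points, coloured by inferred set). The triangles hold the lowest KLF4 of each set, at 0.150, 0.182 and 0.338, and the squares the highest stress list, at 19.9, 23.9 and 22.8.

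The genes most alike in pattern were sought among 5343 genes with a mean level of at least 0.2, by Pearson r of log2(level + 0.1) over the 15 hashed samples. These points share 1 library and 3 sets, so r follows the sets to a large part and has no p. For KLF6 they were SERTAD1 (r = 0.965), EMP3 (0.963) and MCL1 (0.960), a survival gene of the BCL2 family, with medians of 0.496, 0.802 and 1.38 in the unstimulated-like, TNF-like and IFN-gamma-and-TNF-like sets. For KLF5 they were EREG (0.909), an EGF receptor ligand with medians of 3.65, 7.27 and 5.12, HMGA2 (0.905) and TUBA1C (0.887). For KLF4 they were RBM3 (0.887), ILF2 (0.866) and PUS3 (0.847).

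For SOX9 the nearest genes were PTTG1IP (0.937), EGLN1 (0.915), an oxygen-sensing prolyl hydroxylase with medians of 0.440, 0.578 and 0.257, and ARPC1B (0.914). For ZNF703 they were RPP21 (0.966), C19orf53 (0.963) and DBF4 (0.953), a replication kinase subunit with medians of 0.341, 0.269 and 0.145. For EHF they were LSM2 (0.962), USP3 (0.953) and SMC3 (0.947), a cohesin subunit with medians of 1.14, 0.818 and 0.657. For ELF3 they were ZNF292 (0.913), MTFP1 (0.893) and INSIG2 (0.893). With a pseudocount of 0.5 all 3 of these genes stayed in the list for KLF4, KLF5 and KLF6, 2 of 3 for SOX9, ELF3 and EHF and 1 of 3 for ZNF703.

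Within hashed samples the genes could be set against cell states without use of the sets. Cells thinned to 5000 UMIs were split inside each hashed sample, at the 90th percentile of a list or at its median, after the members had been taken out of the list. In cells high for amino acid and unfolded protein stress genes KLF5 was higher in 14 of 15 hashed samples, with median levels of 1.94 in the high and 1.01 in the other cells. KLF6 was higher there in 12 (2.21 and 1.33), ELF3 in 11 (1.29 and 0.819) and KLF4 in 11 (0.429 and 0.364). ZNF703 was lower there in 12 (0.308 and 0.686), SOX9 in 12 (0.231 and 0.313) and EHF in 11 (0.179 and 0.339). These high cells were only 287 over all 15 hashed samples and held 62 UMIs of ZNF703, 57 of SOX9 and 24 of EHF. With so few, a sample often has none by counting error, which favours a lower level for genes of low level. This limit holds for all splits at the 90th percentile.

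Cycling cells had less ELF3 and KLF5, and most other members were also lower in more hashed samples than they were higher. In cells high for G2/M genes ELF3 was lower in 13 of 15 hashed samples (0.435 and 0.867) and KLF5 in 12 (0.609 and 1.14). KLF4 was lower there in 11, SOX9 and EHF in 10 each and ZNF703 in 9, while KLF6 was higher in 8 and lower in 7. In cells high for S phase genes KLF5 was lower in 14 (0.720 and 1.14) and ELF3 in 11 (0.533 and 0.881). In cells high for hypoxia and glycolysis genes KLF5 was lower in 12 (0.931 and 1.11), ZNF703 in 11 (0.370 and 0.698) and ELF3 in 10 (0.545 and 0.847). ELF3 was lower in hypoxia-high cells of most samples although the hashed samples with the most ELF3 had high hypoxia lists. In the TNF-like set, however, ELF3 was higher in such cells in 3 samples and lower in 2.

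Cells in the upper part of the TNF and NF-kB list of their own hashed sample had more KLF5 in 13 of 15 hashed samples (1.17 and 0.938), more KLF6 in 12 (1.82 and 1.30) and more ELF3 in 11 (0.897 and 0.757). EHF was lower there in 11 (0.313 and 0.324), and in all 5 samples of the IFN-gamma-and-TNF-like set. SOX9 was higher in 8 and lower in 7. Cells in the upper part of the IFN-gamma response list had more KLF6 in 11 (1.83 and 1.36), more ELF3 in 11 (1.01 and 0.698) and more KLF4 in 11 (0.381 and 0.322). In the TNF-like set this held for KLF6 and for ELF3 in 5 of 5 samples. For KLF6 it held in 4 of 5 IFN-gamma-and-TNF-like samples (medians 2.25 and 2.33) and in only 2 of 5 unstimulated-like samples (0.850 and 0.952). For ELF3 it held in 3 of 5 samples of each of those sets.

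**Figure D4:**
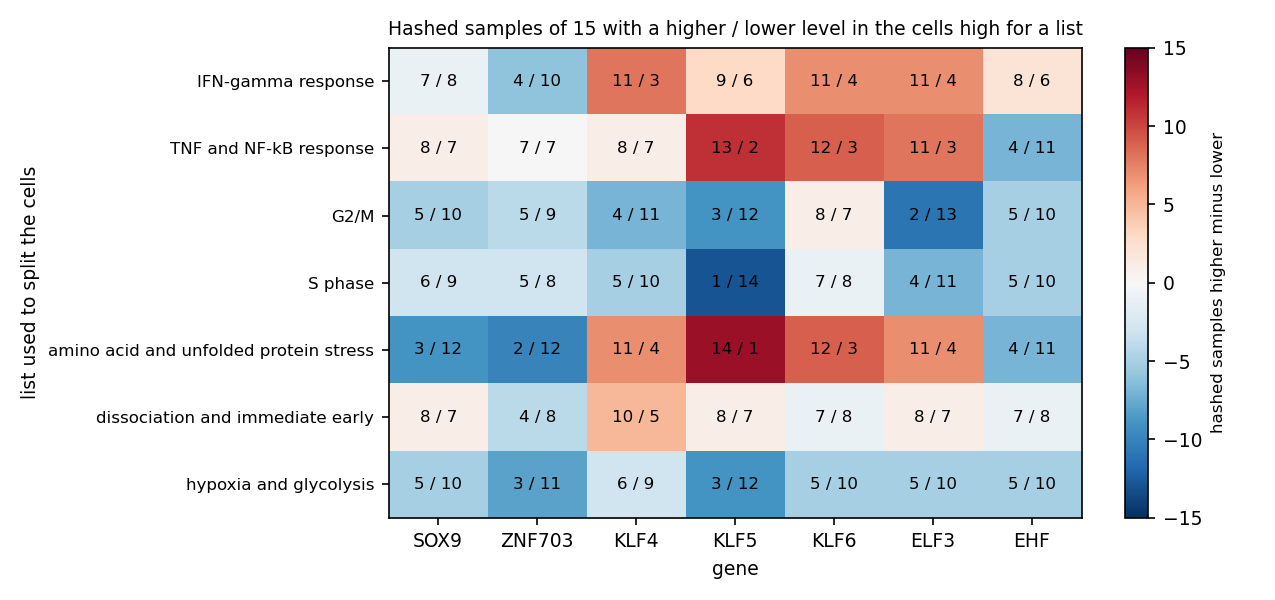
Number of the 15 hashed samples in which a gene (x axis) was higher / lower in the cells high for a list (y axis), with colour for the difference of both numbers. Stress-high cells hold more KLF5 in 14 samples and less ZNF703 in 12, and cells high for S phase genes hold less KLF5 in 14. Ties are in neither number, and few high cells per sample favour the lower number for genes of low level.

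Single cells gave no strong link between pairs of the genes. The median Spearman rho within hashed samples was highest for KLF5 with KLF6 (0.108), followed by KLF4 with KLF6 (0.0849) and KLF4 with KLF5 (0.0820). At 0 to a few UMIs per cell such values are too weak to read.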

How the data were processed

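The deposited files hold raw UMI counts of genes and hashtags for each barcode, with gene symbols and barcodes as other text columns made by the authors. The header of the matrix, per the file headers, names Cell Ranger 5.0.1. The submitters' processing notes give version 2.1.1 and GRCh38. Which was used, and the cell calling, is not known here.

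Cells had at least 1000 genes and at most 20% mitochondrial UMIs, which removed 1731 of 5269 barcodes. Cells went to their 2 strongest hashtags where the weaker of these reached 10 counts and 3 times the next one. The pair also had to be among the 15 named above, and 394 kept cells had no such pair. No doublet caller was run; cells with 3 strong hashtags drop out by the pair rule, and doublets within a hashed sample remain. Levels are summed counts per 10000 UMIs with exact 95% Poisson intervals, and shares have exact binomial ones; both cover counting error only. Counts at the 3' end do not scale with gene length. Thinning to 5000 UMIs left out 216 cells with a pair.

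With 1 pooled library, no labelled replicate and sets chosen by measured values, no significance test was run. The members, lists and sets were chosen with earlier results of these data known. All 8 members are named, with the 3 genes most like each in pattern and, from each family list, the called genes (at most 4 of largest ratio per direction). The scripts were tested on simulated data. Python 3.11.15, numpy 2.4.6, scipy 1.17.1 and pandas 2.3.3 were used, and gene positions are from GENCODE 29 on GRCh38. The windows of ZNF703 and GRHL2 were not used here. Some genes of the family lists are not reported here.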

Additional observations from a re-analysis of the deposited data

Results flagged for a closer look

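ELF3 in HTO3+HTO8 stood at 1.82 UMIs per 10000, far from the next TNF-like sample at 1.04 and the lowest at 0.756. GRHL2 in HTO3+HTO8 (0.00137) and in HTO2+HTO5 (0.00258) stood apart only because each is a single count beside 4 samples at 0. In all, 24 groups of 5 were checked for a sample far from the others, and 3 had one. The rate of such flags by chance alone was not computed, and for GRHL2 a single count beside 4 samples at 0 is always flagged. The number of flags is therefore not read as an excess.

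The 394 kept cells without a clear pair of hashtags among the 15 enter no comparison. Their levels were 0.491 for SOX9, 0.861 for ZNF703, 0.346 for KLF4, 1.14 for KLF5, 1.502 for KLF6, 1.14 for ELF3 and 0.336 for EHF, with 0 counts of GRHL2. A count of 0 would allow 0.00511 there. Each of the 7 levels lay within the range of the 15 hashed samples.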

How the results depend on the processing

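Of 462 values of the 21 member ratios under 22 other settings, 442 moved by less than the spread between hashed samples, 20 moved by more and 0 changed the direction of a call. KLF6, EHF and ZNF703 between the IFN-gamma-and-TNF-like and unstimulated-like sets were called in 22 of 22 settings. Below, "against none" means against the unstimulated-like set, TNF the TNF-like set and both the IFN-gamma-and-TNF-like set.

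With at most 10% mitochondrial UMIs the ratio was 2.42 for KLF4, 2.30 for KLF6 and 0.515 for EHF in TNF against none, 2.66 for KLF4 in both against none and 0.520 for EHF in both against TNF, where the EHF call was lost. With only HTO2, KLF6 was 2.27 in both against none and 1.31 in both against TNF. With only HTO3, the ratio in TNF against none was 1.07 for KLF5, 1.29 for KLF6, 1.74 for ELF3 and 1.05 for EHF, and in both against none 0.955 for SOX9, 0.938 for KLF4, 0.889 for KLF5, 2.24 for KLF6 and 1.24 for ELF3. With only HTO4, it was 0.640 for ELF3 in TNF against none and 0.149 for SOX9, 2.04 for KLF4 and 0.374 for ELF3 in both against none. The causes were not tested. A single hashtag leaves 1 or 2 samples a set, and the 10% limit drops most cells of every hashed sample. The KLF6 calls in TNF against none and both against TNF were lost without cells high for cell cycle or stress genes (1.82 and 1.84), the first also with only HTO3 and the second with only HTO2 and at 10% mitochondrial UMIs (1.52). The ZNF703 call in TNF against none was lost with only HTO3 (0.700) and at 10% mitochondrial UMIs, and the EHF call in both against TNF also in thinned cells (0.1999).

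Of the gene counts, those higher in TNF against none went from 273 to 176 at a ratio of 2 and 415 without samples of under 100 cells, a setting that was chosen for the gene counts after seeing the data. Those lower went from 153 to 57 at a mean level of 0.2, 248 with no minimum, 297 at a looser ratio, 37 at 2 and 276 without small samples, and 171 to 244 when 1 hashed sample was left out, the most without HTO3+HTO7. In both against none those lower went from 1183 to 593 at 0.2, 527 at a ratio of 2, 604 under median-of-ratios scaling and 1893 without small samples. In both against TNF those higher went from 409 to 269 at a ratio of 2, and those lower from 417 to 217 at 0.2, 690 at the looser ratio, 153 at 2, 211 under median-of-ratios scaling and 919 without small samples. No paired analysis was possible because the hashed samples carry no replicate numbers; no label says what a shared first hashtag stands for, and values within it are given as such. Values under 0.05 rest on few counts.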
